A study of Mus musculus with 24 samples.

Results

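The 55 genes described here encode the machinery that licenses, starts and carries out DNA replication, together with the E2F and cyclin E genes that govern entry into S phase. They were listed by gene name, and earlier results of these data were known when they were chosen. All 55 were found in the table of 38215 genes, and all 55 passed the filter on low counts that left 15879 genes to test. By role they comprise 9 genes of origin recognition and licensing, the 6 subunits of the MCM2-7 helicase, 7 genes of helicase activation, 9 polymerase and primase subunits, 11 genes of the sliding clamp, its loader, the single-strand binding protein RPA and Okazaki fragment maturation, 5 genes of nucleotide supply, 5 E2F and cyclin E genes, and 3 genes that copy chromatin marks and histones behind the fork.

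As background, the origin recognition complex marks origins in G1, where Cdc6 and Cdt1 load the MCM2-7 helicase in an inactive form. The Cdc7 kinase and cyclin E with its partner kinase then turn the helicase on with Cdc45 and GINS, and polymerases start copying. Many of these genes are switched on by activating E2F factors once the RB protein is phosphorylated, and are switched down again by repressive ones such as E2F8. Long-term haematopoietic stem cells (LT-HSCs) are known to rest mostly outside the cell cycle, and type I interferon given acutely is known to bring resting stem cells into cycle.

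The series holds 24 RNA sequencing libraries of LT-HSCs, primed on poly(A) tails, 6 in each of 4 groups. The recipients were 12 C57BL/6J mice carrying both Ptprc alleles (CD45.1+/CD45.2+), lethally irradiated with 11 Gy and given 2000000 marrow cells, mixed 1:1 from a Jak2 wild-type donor (Ptprca, CD45.1+) and a donor heterozygous for Jak2V617F with Tg(E2A-cre) (CD45.2+). Jak2V617F is the activating kinase mutation common in myeloproliferative neoplasms (MPN), and the study's title concerns interferon-induced apoptosis of MPN stem cells. From each mouse, Lin-/Sca1+/cKit+/CD150+/CD48- cells were sorted by CD45 allele into a wild-type and a Jak2V617F library, and the number in the library names was taken to mark the mouse. Vehicle (PBS with 0.1% BSA) was injected weekly in 6 mice and 600 ng of pegylated interferon alpha (pegIFN) in 6, in 5 doses over 4 weeks, with cells taken 48 hours after the last dose. All 4 groups therefore share irradiation, transplantation and a mixed graft, and only the mutant cells carry the Cre transgene. The cells in which that Cre acts, the age of the mice and the number of marrow donors are not given in the sources used here.

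Levels are given as CPM, counts scaled by the TMM-normalised size of the library, and total counts ran from 24.6 M to 39.7 M per library, so that these 55 genes took 0.50 to 0.85% of the counts. Fold changes are log2 values with their standard error (SE) from edgeR's quasi-likelihood model, and a gene was called where its Benjamini-Hochberg adjusted p, over all 15879 genes, was under 0.05. Of 12 LT-HSC markers, all were detected in every library, among them Slamf1 (CD150) at 27.99 to 46.8 CPM. Cd48, whose protein the gate excludes, was present at 4.73 to 14.6 CPM in vehicle and 18.5 to 40.97 CPM in pegIFN libraries. On sex-linked genes, 2 libraries stood apart from the rest of their groups. Sex-linked genes also went with the genotype. Xist, the X-silencing RNA of female cells, had medians of 2100.1 and 2237 CPM in wild-type and of 23.2 and 78.7 CPM in Jak2V617F libraries under vehicle and pegIFN, and Ddx3y, a Y-linked gene, of 26.1 and 5.60 CPM in wild-type and of 90.98 and 67.3 CPM in Jak2V617F libraries. The sex of the donors is not given in the sources used here, and in the genotype comparisons these differences and the Jak2 genotype cannot be told apart. Ddx3y medians also differed by treatment, 26.1 under vehicle against 5.60 CPM under pegIFN in wild-type and 90.98 against 67.3 CPM in Jak2V617F cells. The part of this in the pegIFN and interaction results was not tested. Wild-type vehicle replicate 4 had Xist at 599 CPM against a group median of 2100.1. Jak2V617F pegIFN replicate 1 had 654 CPM against a group median of 78.7. Both values lay between the wild-type and Jak2V617F medians of their treatment. Counts of called genes over all 55 members and over the other lists are given with and without this discordant pair. The members whose call is lost or kept without it are named. Counts by role include it unless stated. As a check of treatment, the interferon-induced genes Isg15, Irf7 and Mx1 rose by 5.45 ± 0.12, 5.33 ± 0.17 and 5.71 ± 0.27 in wild-type and by 5.06 ± 0.11, 5.13 ± 0.16 and 5.99 ± 0.28 in Jak2V617F cells. Gene counts do not resolve the Jak2 mutation itself. Replicates are libraries of separate mice, read from the numbers in the library names.

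Replication genes as a group stood lowest in wild-type vehicle cells and highest in Jak2V617F cells after pegIFN. The mean log2 CPM of the 55 genes ran from 5.91 to 6.45 in wild-type vehicle, 6.23 to 6.62 in Jak2V617F vehicle, 6.58 to 6.64 in wild-type pegIFN and 6.64 to 6.81 in Jak2V617F pegIFN libraries. No vehicle library reached the lowest pegIFN library of its own genotype. Of the paired libraries, the mutant one had the higher mean in 12 of 12 mice. The values are of RNA from sorted populations, in which more cells in S phase and more RNA per cell cannot be told apart.

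**Figure D1:**
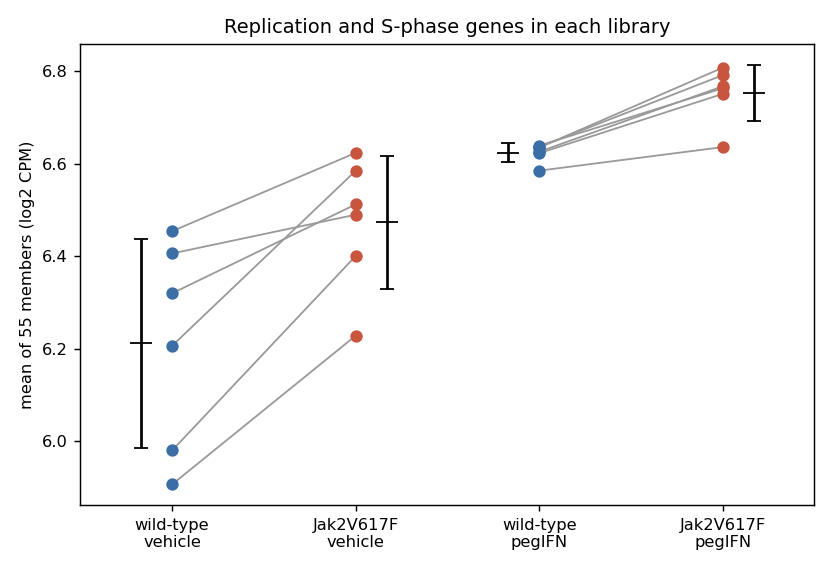
Mean log2 CPM of the 55 replication and S-phase genes in each library (vertical axis) for the 4 groups (horizontal axis). Points are libraries, lines join the wild-type and Jak2V617F library of a mouse, and bars are the group mean ± SD (n = 6). Vehicle libraries spread from 5.91 to 6.62 and pegIFN libraries from 6.58 to 6.81, and all 12 lines rise.

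After pegIFN, 43 of the 55 genes were higher and 0 lower in wild-type cells, with a median log2 change of 0.40, where 28.2% of all genes tested were called higher and 28.7% lower with a median of -0.014. In Jak2V617F cells 36 were higher and 0 lower, with a median of 0.29, where 21.7% of all genes were called higher and 22.3% lower with a median of -0.0096. The estimate was above 0 for 54 of 55 genes in wild-type and for 52 of 55 in Jak2V617F cells. For 26 genes in wild-type and 21 in Jak2V617F cells, every pegIFN library lay above every vehicle library, which held for 15.1% and 9.81% of all genes. Leaving out the discordant pair, 37 genes (median 0.33) and 36 genes (median 0.27) were called higher and 0 lower. In wild-type cells Pola1, Prim1, Pcna, Rpa2, Rrm1 and Tyms did not pass without the pair (adjusted p from 0.0658 to 0.142). In Jak2V617F cells Gmnn did not pass (adjusted p = 0.0512) and Lig1 did. Groups did not overlap for 26 and 22 genes without it, against 15.7% and 10.5% of all genes. Scaling to the upper quartile, which moved the split of all genes to 3495 higher and 5400 lower in wild-type and to 2678 and 4223 in Jak2V617F cells (4474 and 4553, and 3446 and 3545, with the main scaling), left 32 and 31 of the 55 higher and 0 lower. With that scaling Orc5, Pola1, Prim1, Pold3, Pole, Pcna, Rfc3, Rpa1, Rpa2, Rrm1 and Tyms did not pass in wild-type cells (adjusted p from 0.0577 to 0.204), and Cdc45, Gins2, Rfc2, Rpa1 and Chaf1b did not in Jak2V617F cells (adjusted p from 0.0508 to 0.119).

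**Figure D2:**
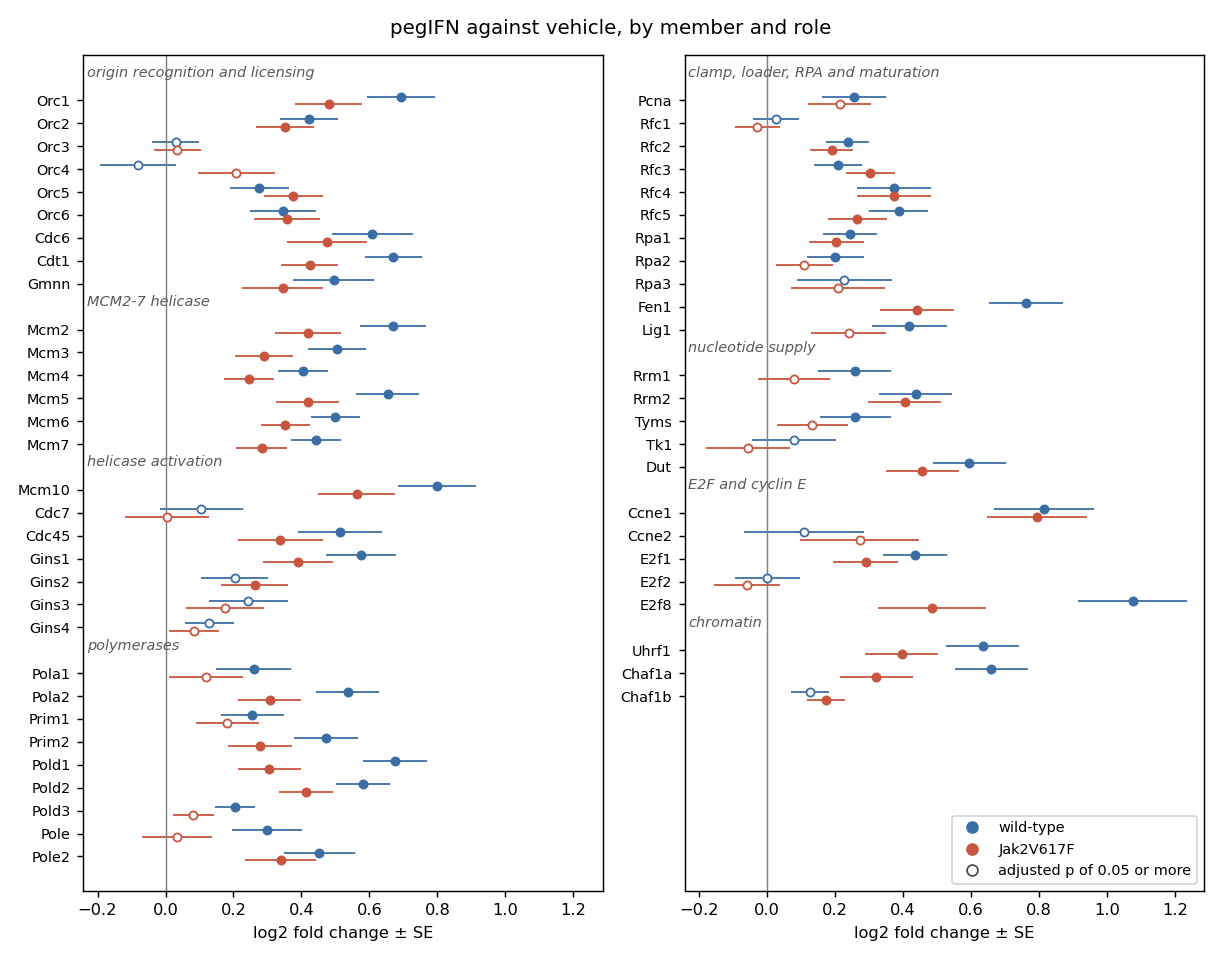
Log2 fold change of each gene with pegIFN (horizontal axis) in wild-type (blue) and Jak2V617F (red) cells, by role (vertical axis). Points are edgeR estimates, bars are ± SE (n = 6 libraries a group), and open points have an adjusted p of 0.05 or more. All filled points lie above 0, from 0.17 for Chaf1b in Jak2V617F cells to 1.08 for E2f8 in wild-type cells.

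Promoters were read because so many members moved together and because E2F factors are known regulators of the class. RefSeq promoters (GRCm38.p6, 250 bases before to 50 after the start) were found for 46 of the 55 genes, 57 promoters in all. An E2F motif, searched on both strands as TTTCCCGC, TTTCGCGC, TTTGCCGC or TTTGGCGC, was present for 17 of the 46 genes (36.96%) against 2.605% of all 27025 genes, and in 29.82% of their promoters against 2.265% of all 32851 promoters. The spellings TTTCCCGC and TTTGGCGC alone gave 30.43% against 1.798%. CCAAT was present for 58.7% against 41.06% of all genes, TTTGAA (the CHR motif of G2/M genes) for 17.39% against 20.23%, and AANNGAAA (a core read by interferon regulatory factors) for 21.74% against 26.67%. These motifs were counted independently of each other and may overlap. In wild-type cells, 14 of the 17 genes with the E2F motif were called higher after pegIFN (median 0.45), and 23 of the 29 without it (median 0.37). In Jak2V617F cells 11 of 17 (median 0.30) and 19 of 29 (median 0.31) were called. Without the discordant pair, 13 of 17 with and 18 of 29 without the motif were called in wild-type cells, and 12 of 17 and 19 of 29 in Jak2V617F cells.

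The promoters printed here show where these matches lie in genes described library by library. They are the 5 such genes with a match and the largest wild-type changes after pegIFN, then 2 that rose least among those without a match in these spellings. Capitals mark the E2F matches, and each sequence runs 5′ to 3′ on the gene's strand (RefSeq, GRCm38.p6). They lie at Orc1, chr4:108579204-108579503 on the plus strand, Pold1, chr7:44548766-44549065 on the minus strand, Cdt1, chr8:122567765-122568064 on the plus strand, Mcm5, chr8:75109259-75109558 on the plus strand, Uhrf1, chr17:56304063-56304362 on the plus strand, Rpa1, chr11:75348334-75348633 on the minus strand and Pcna, chr2:132253131-132253430 on the minus strand.
Orc1: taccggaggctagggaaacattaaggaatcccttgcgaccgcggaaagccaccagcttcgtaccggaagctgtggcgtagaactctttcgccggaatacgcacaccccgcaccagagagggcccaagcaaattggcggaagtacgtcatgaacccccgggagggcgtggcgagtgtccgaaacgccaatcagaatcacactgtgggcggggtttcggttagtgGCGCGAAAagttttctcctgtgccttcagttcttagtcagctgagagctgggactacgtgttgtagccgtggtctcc
Pold1: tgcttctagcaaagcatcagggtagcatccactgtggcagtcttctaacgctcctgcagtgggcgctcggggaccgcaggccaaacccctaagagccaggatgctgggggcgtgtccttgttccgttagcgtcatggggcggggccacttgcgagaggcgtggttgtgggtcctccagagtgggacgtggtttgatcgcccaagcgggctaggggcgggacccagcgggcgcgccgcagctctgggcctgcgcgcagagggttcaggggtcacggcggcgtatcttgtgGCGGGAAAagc
Cdt1: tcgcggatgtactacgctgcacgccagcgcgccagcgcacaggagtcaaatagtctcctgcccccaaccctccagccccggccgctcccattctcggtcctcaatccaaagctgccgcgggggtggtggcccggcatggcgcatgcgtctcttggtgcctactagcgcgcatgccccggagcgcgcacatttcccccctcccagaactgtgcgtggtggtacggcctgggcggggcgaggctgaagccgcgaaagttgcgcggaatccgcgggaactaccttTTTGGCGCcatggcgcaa
Mcm5: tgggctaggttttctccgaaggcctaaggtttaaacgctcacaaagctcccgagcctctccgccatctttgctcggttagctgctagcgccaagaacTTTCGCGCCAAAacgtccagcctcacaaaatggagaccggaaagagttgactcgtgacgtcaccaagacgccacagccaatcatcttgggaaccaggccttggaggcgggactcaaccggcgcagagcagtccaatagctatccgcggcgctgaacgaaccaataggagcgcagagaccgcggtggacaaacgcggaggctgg
Uhrf1: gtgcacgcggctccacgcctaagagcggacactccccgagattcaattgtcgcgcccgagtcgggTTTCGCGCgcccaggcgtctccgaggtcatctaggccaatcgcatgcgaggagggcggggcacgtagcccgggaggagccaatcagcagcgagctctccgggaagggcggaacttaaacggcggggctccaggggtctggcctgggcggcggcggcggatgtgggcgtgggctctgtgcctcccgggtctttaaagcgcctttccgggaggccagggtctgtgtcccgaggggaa
Rpa1: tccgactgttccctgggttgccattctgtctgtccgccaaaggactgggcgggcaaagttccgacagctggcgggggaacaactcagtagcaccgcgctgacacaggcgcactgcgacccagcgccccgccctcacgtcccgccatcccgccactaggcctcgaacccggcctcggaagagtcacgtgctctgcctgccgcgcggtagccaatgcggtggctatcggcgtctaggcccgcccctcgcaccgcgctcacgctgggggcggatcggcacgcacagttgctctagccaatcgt
Pcna: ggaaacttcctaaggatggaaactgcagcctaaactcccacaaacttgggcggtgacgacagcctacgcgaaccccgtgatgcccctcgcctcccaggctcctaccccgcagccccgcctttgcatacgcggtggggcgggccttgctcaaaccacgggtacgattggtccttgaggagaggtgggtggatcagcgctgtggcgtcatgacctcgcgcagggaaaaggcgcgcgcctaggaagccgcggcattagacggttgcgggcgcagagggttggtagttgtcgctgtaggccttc
Taking the start site as 0, the match began at -27 in Orc1, 39 in Pold1, 32 in Cdt1 and -185 in Uhrf1. In Mcm5, matches that began at -153 and -149 overlapped into a single run. Uhrf1 has 2 listed promoters, of which the one with the match is shown. A match is a string of letters in this window, and binding was not measured.

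Origin recognition and licensing genes rose in most cases, 7 of 9 in each genotype, with a median change of 0.42 in wild-type and 0.36 in Jak2V617F cells. Orc1, the origin recognition subunit whose level is known to follow E2F (ENSMUSG00000028587, chr4:108579423-108614833, GRCm38), ran at 10.1 to 17.5 (median 12.98) CPM in wild-type vehicle, 19.3 to 23.4 (median 21.4) in wild-type pegIFN, 14.5 to 18.98 (median 16.8) in Jak2V617F vehicle and 18.7 to 24.7 (median 24.5) in Jak2V617F pegIFN libraries. Every wild-type pegIFN library lay above every vehicle library, while in Jak2V617F cells the lowest pegIFN library, replicate 3, fell within the vehicle range. Orc1 rose by 0.69 ± 0.10 (adjusted p = 2.87e-06) in wild-type and by 0.48 ± 0.10 (adjusted p = 0.000429) in Jak2V617F cells.

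Cdc6, the loader of the MCM2-7 helicase (ENSMUSG00000017499, chr11:98907801-98923940), ran at 34.5 to 64.4 (median 47.8) CPM in wild-type vehicle, 64.6 to 79.1 (median 73.9) in wild-type pegIFN, 48.5 to 68.3 (median 53.1) in Jak2V617F vehicle and 64.3 to 81.6 (median 77.7) in Jak2V617F pegIFN libraries. The wild-type groups were barely apart, and the Jak2V617F groups overlapped. Cdc6 rose by 0.61 ± 0.12 (adjusted p = 0.000122) in wild-type and by 0.48 ± 0.12 (adjusted p = 0.00226) in Jak2V617F cells. Cdt1, its partner in loading (ENSMUSG00000006585, chr8:122568015-122573128), ran at 66.3 to 97.1 (median 83.03) CPM in wild-type vehicle, 108 to 146 (median 131) in wild-type pegIFN, 80.1 to 103 (median 90.5) in Jak2V617F vehicle and 109 to 141 (median 120.2) in Jak2V617F pegIFN libraries. Vehicle and pegIFN libraries did not overlap in either genotype for Cdt1. Cdt1 rose by 0.67 ± 0.084 (adjusted p = 4.59e-07) in wild-type and by 0.42 ± 0.084 (adjusted p = 0.000281) in Jak2V617F cells. Gmnn, which encodes geminin, the inhibitor of Cdt1 (ENSMUSG00000006715, chr13:24751845-24761923), ran at 25.1 to 39.9 (median 34.1) CPM in wild-type vehicle, 40.03 to 50.9 (median 45.5) in wild-type pegIFN, 30.6 to 50.5 (median 43.8) in Jak2V617F vehicle and 47.9 to 69.7 (median 53.01) in Jak2V617F pegIFN libraries. Its wild-type groups were barely apart and its Jak2V617F groups overlapped. Gmnn rose by 0.50 ± 0.12 (adjusted p = 0.00106) in wild-type and by 0.34 ± 0.12 (adjusted p = 0.021) in Jak2V617F cells.

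The other origin recognition subunits were less uniform. Orc2 and Orc6 were called higher in both genotypes, Orc2 by 0.42 ± 0.085 and 0.35 ± 0.085 and Orc6 by 0.35 ± 0.10 and 0.36 ± 0.10 in wild-type and Jak2V617F cells. Orc5 had the smallest called wild-type change of this class, 0.28 ± 0.087 (adjusted p = 0.00896), and rose by 0.38 ± 0.087 (adjusted p = 0.00122) in Jak2V617F cells. Orc3 stood at 0.030 ± 0.070 (adjusted p = 0.733) and 0.035 ± 0.070 (adjusted p = 0.723). Orc4 was the sole member with a wild-type estimate below 0, at -0.080 ± 0.11 (adjusted p = 0.561), against 0.21 ± 0.11 (adjusted p = 0.135) in Jak2V617F cells.

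All 6 MCM2-7 subunits rose in both genotypes, with a median of 0.50 in wild-type and 0.32 in Jak2V617F cells. These subunits form the ring that unwinds DNA at the fork. Mcm2 (ENSMUSG00000002870, chr6:88883475-88898780), ran at 227 to 369 (median 330.1) CPM in wild-type vehicle, 419 to 559 (median 504) in wild-type pegIFN, 289 to 387 (median 369) in Jak2V617F vehicle and 433 to 535 (median 462) in Jak2V617F pegIFN libraries. The vehicle and pegIFN libraries of Mcm2 did not overlap in either genotype. Mcm2 rose by 0.67 ± 0.10 (adjusted p = 2.84e-06) in wild-type and by 0.42 ± 0.10 (adjusted p = 0.00109) in Jak2V617F cells. Mcm5, whose promoter holds the overlapping matches (ENSMUSG00000005410, chr8:75109528-75128439), ran at 192 to 315 (median 275) CPM in wild-type vehicle, 366 to 445 (median 414) in wild-type pegIFN, 259 to 344 (median 314) in Jak2V617F vehicle and 383 to 466 (median 407) in Jak2V617F pegIFN libraries. Again no vehicle library reached the lowest pegIFN library of its genotype. Mcm5 rose by 0.65 ± 0.093 (adjusted p = 2.48e-06) in wild-type and by 0.42 ± 0.093 (adjusted p = 0.00082) in Jak2V617F cells.

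Mcm6, the most abundant subunit per length of exon (ENSMUSG00000026355, chr1:128331591-128359656), ran at 377 to 556 (median 494) CPM in wild-type vehicle, 644 to 727 (median 692) in wild-type pegIFN, 457 to 580.2 (median 542) in Jak2V617F vehicle and 661 to 709 (median 681) in Jak2V617F pegIFN libraries. Mcm6 was apart in both genotypes, and its pegIFN libraries lay close together. Mcm6 rose by 0.50 ± 0.072 (adjusted p = 2.80e-06) in wild-type and by 0.35 ± 0.072 (adjusted p = 0.000366) in Jak2V617F cells. Mcm3, Mcm4 and Mcm7 rose by 0.50 ± 0.085, 0.40 ± 0.074 and 0.44 ± 0.074 in wild-type cells, Mcm4 being the smallest of the class. In Jak2V617F cells they rose by 0.29 ± 0.085, 0.24 ± 0.074 and 0.28 ± 0.074. The pegIFN and vehicle groups overlapped for Mcm3 in Jak2V617F cells and in no other case of these 6 genes. The Mcm7 locus overlaps Ap4m1 and Cops6, and since strand is not stated its count is less certain.

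Helicase activation was split. In wild-type cells 3 of 7 genes rose (Mcm10, Cdc45 and Gins1) and in Jak2V617F cells 4 of 7 (these and Gins2), with medians of 0.24 and 0.26. Mcm10, a factor needed for the helicase to move off (ENSMUSG00000026669, chr2:4989714-5012791), ran at 34.2 to 66.7 (median 51.5) CPM in wild-type vehicle, 83.7 to 92.8 (median 87.4) in wild-type pegIFN, 53.1 to 72.2 (median 66.1) in Jak2V617F vehicle and 86.5 to 104 (median 96.7) in Jak2V617F pegIFN libraries. The groups were apart in both genotypes. Mcm10 rose by 0.80 ± 0.11 (adjusted p = 2.80e-06) in wild-type and by 0.56 ± 0.11 (adjusted p = 0.000346) in Jak2V617F cells. Cdc45, a component of the active helicase (ENSMUSG00000000028, chr16:18780447-18811987), ran at 27.4 to 48.2 (median 39.2) CPM in wild-type vehicle, 50.2 to 59.3 (median 55.01) in wild-type pegIFN, 30.97 to 52.7 (median 49.4) in Jak2V617F vehicle and 56.2 to 66.2 (median 57.5) in Jak2V617F pegIFN libraries. Cdc45 was likewise apart in both genotypes, and Jak2V617F vehicle replicate 4 lay far below the rest of its group. Cdc45 rose by 0.51 ± 0.12 (adjusted p = 0.00114) in wild-type and by 0.34 ± 0.12 (adjusted p = 0.0294) in Jak2V617F cells.

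Of the 4 GINS subunits, Gins1 rose by 0.58 ± 0.10 (adjusted p = 4.63e-05) in wild-type and by 0.39 ± 0.10 (adjusted p = 0.00352) in Jak2V617F cells. Gins2, another GINS subunit (ENSMUSG00000031821, chr8:120578633-120589304), ran at 69.5 to 111 (median 98.5) CPM in wild-type vehicle, 105 to 112 (median 107) in wild-type pegIFN, 90.6 to 123 (median 104) in Jak2V617F vehicle and 113 to 134 (median 131) in Jak2V617F pegIFN libraries. Its vehicle libraries reached into the pegIFN range in both genotypes. Gins2 stood at 0.20 ± 0.10 (adjusted p = 0.0797) in wild-type cells and rose by 0.26 ± 0.10 (adjusted p = 0.0326) in Jak2V617F cells. Gins3 stood at 0.24 ± 0.11 and 0.17 ± 0.11 and Gins4 at 0.13 ± 0.073 and 0.083 ± 0.073, with adjusted p from 0.0727 to 0.37. Cdc7, the kinase that acts on the loaded helicase, stood at 0.11 ± 0.12 (adjusted p = 0.478) in wild-type and 0.0042 ± 0.12 (adjusted p = 0.983) in Jak2V617F cells.

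Polymerase and primase subunits rose in 9 of 9 cases in wild-type cells (median 0.45) and in 5 of 9 in Jak2V617F cells (median 0.28). Without the discordant pair 7 of 9 (median 0.39) and 5 of 9 (median 0.27) rose. Pold1, the catalytic subunit of the lagging-strand polymerase delta (ENSMUSG00000038644, chr7:44532746-44548849), ran at 135 to 194 (median 188) CPM in wild-type vehicle, 224 to 309 (median 290.2) in wild-type pegIFN, 173 to 218 (median 211) in Jak2V617F vehicle and 222 to 296 (median 239.5) in Jak2V617F pegIFN libraries. No libraries overlapped between treatments in either genotype, and the wild-type pegIFN median was above the Jak2V617F one. Pold1 rose by 0.68 ± 0.093 (adjusted p = 1.64e-06) in wild-type and by 0.30 ± 0.093 (adjusted p = 0.00988) in Jak2V617F cells. Pole, the catalytic subunit of the leading-strand polymerase epsilon (ENSMUSG00000007080, chr5:110286306-110337474), ran at 97.4 to 165 (median 147) CPM in wild-type vehicle, 142 to 179.7 (median 176) in wild-type pegIFN, 119.6 to 186 (median 156) in Jak2V617F vehicle and 141 to 173 (median 164) in Jak2V617F pegIFN libraries. Both genotypes overlapped between treatments for Pole. Pole rose by 0.30 ± 0.10 (adjusted p = 0.0161) in wild-type cells and stood at 0.033 ± 0.10 (adjusted p = 0.821) in Jak2V617F cells. With upper-quartile scaling the Jak2V617F value of Pole was -0.023.

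Pola1, the catalytic subunit of the priming polymerase alpha (ENSMUSG00000006678, chrX:93304767-93632155), ran at 86.05 to 153 (median 118) CPM in wild-type vehicle, 130.3 to 161 (median 146) in wild-type pegIFN, 104 to 165 (median 142) in Jak2V617F vehicle and 137 to 176 (median 153) in Jak2V617F pegIFN libraries. Vehicle libraries ran into the pegIFN range in both genotypes. Pola1 rose by 0.26 ± 0.11 (adjusted p = 0.0474) in wild-type cells and stood at 0.12 ± 0.11 (adjusted p = 0.401) in Jak2V617F cells. Its partners Pola2 and Prim2 rose in both genotypes, by 0.54 ± 0.093 and 0.47 ± 0.094 in wild-type and 0.31 ± 0.092 and 0.28 ± 0.094 in Jak2V617F cells. Prim1 rose by 0.25 ± 0.093 (adjusted p = 0.0219) in wild-type cells and stood at 0.18 ± 0.093 (adjusted p = 0.113) in Jak2V617F cells. Of the accessory subunits, Pold2 rose by 0.58 ± 0.079 and 0.41 ± 0.079 and Pole2 by 0.45 ± 0.10 and 0.34 ± 0.10. Pold3 had the smallest called wild-type change of the class at 0.20 ± 0.059 (adjusted p = 0.005), and stood at 0.082 ± 0.059 (adjusted p = 0.271) in Jak2V617F cells.

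Among the clamp, its loader, RPA and the maturation enzymes, 9 of 11 genes rose in wild-type and 6 of 11 in Jak2V617F cells, with medians of 0.24 and 0.21. Without the discordant pair 7 of 11 rose in each genotype, with medians of 0.22 and 0.20. Pcna, the sliding clamp (ENSMUSG00000027342, chr2:132249162-132253314), ran at 266 to 432 (median 350.3) CPM in wild-type vehicle, 378 to 441 (median 412) in wild-type pegIFN, 340.2 to 472 (median 408) in Jak2V617F vehicle and 436 to 515 (median 457) in Jak2V617F pegIFN libraries. The ranges of Pcna overlapped between treatments in both genotypes. Pcna rose by 0.26 ± 0.094 (adjusted p = 0.023) in wild-type cells and stood at 0.21 ± 0.094 (adjusted p = 0.0673) in Jak2V617F cells. Per kilobase of exon Pcna had the highest mean of the 55 genes in every group, from 144 CPM per kilobase in wild-type vehicle to 193 in Jak2V617F pegIFN. The lowest means per kilobase were those of Orc1 in wild-type vehicle, 3.82, and of Orc5 in the other groups, 4.16 to 5.40.

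Rpa1, the large subunit that coats single-stranded DNA (ENSMUSG00000000751, chr11:75298166-75348324), ran at 136 to 210.2 (median 174) CPM in wild-type vehicle, 194 to 212 (median 207) in wild-type pegIFN, 162 to 222 (median 206) in Jak2V617F vehicle and 225 to 235 (median 229.7) in Jak2V617F pegIFN libraries. The Jak2V617F groups were apart and the wild-type groups overlapped. Rpa1 rose by 0.24 ± 0.080 (adjusted p = 0.0119) in wild-type and by 0.20 ± 0.080 (adjusted p = 0.0418) in Jak2V617F cells. Lig1, the ligase that seals Okazaki fragments (ENSMUSG00000056394, chr7:13277283-13311433), ran at 121 to 223 (median 192) CPM in wild-type vehicle, 222 to 258 (median 250.2) in wild-type pegIFN, 167 to 238 (median 216) in Jak2V617F vehicle and 230.0 to 269.7 (median 248) in Jak2V617F pegIFN libraries. Lig1 overlapped between treatments in both genotypes, in wild-type cells only just. Lig1 rose by 0.42 ± 0.11 (adjusted p = 0.00231) in wild-type cells and stood at 0.24 ± 0.11 (adjusted p = 0.0788) in Jak2V617F cells.

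Fen1, the flap nuclease that trims Okazaki fragments, had the largest wild-type change of this class, 0.76 ± 0.11 (adjusted p = 3.00e-06), and rose by 0.44 ± 0.11 (adjusted p = 0.00214) in Jak2V617F cells. It ran from 59.05 to 112 CPM in wild-type vehicle and from 141 to 165 CPM in wild-type pegIFN libraries, without overlap. The Fen1 locus overlaps Tmem258, and its expected count was not a whole number in any of the 24 libraries. This also held for Orc2, Orc4, Mcm4, Mcm7, Pcna, Rfc5, Tk1, Ccne2 and Chaf1a. It held in 23 libraries for E2f8, whose locus overlaps Gm2788, among others. Of the clamp loader, Rfc2, Rfc3, Rfc4 and Rfc5 rose in both genotypes, by 0.21 to 0.39 in wild-type and 0.19 to 0.37 in Jak2V617F cells, while its large subunit Rfc1 stood at 0.027 ± 0.067 and -0.028 ± 0.067. Rpa2 had the smallest called wild-type change of the class, 0.20 ± 0.084 (adjusted p = 0.0435), and stood at 0.11 ± 0.084 (adjusted p = 0.303) in Jak2V617F cells. Rpa3, the smallest RPA subunit, stood at 0.23 ± 0.14 and 0.21 ± 0.14.

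Nucleotide supply genes rose in 4 of 5 cases in wild-type (median 0.26) and 2 of 5 in Jak2V617F cells (median 0.13). Without the discordant pair 2 of 5 rose in each genotype (medians 0.19 and 0.083). Rrm2, the S-phase subunit of ribonucleotide reductase, which makes deoxynucleotides (ENSMUSG00000020649, chr12:24708241-24714146), ran at 66.1 to 118 (median 79.4) CPM in wild-type vehicle, 97.9 to 132 (median 116) in wild-type pegIFN, 88.7 to 129.5 (median 108) in Jak2V617F vehicle and 126 to 154 (median 146) in Jak2V617F pegIFN libraries. In both genotypes vehicle replicate 2 alone reached the pegIFN range. Rrm2 rose by 0.44 ± 0.11 (adjusted p = 0.00123) in wild-type and by 0.40 ± 0.11 (adjusted p = 0.00359) in Jak2V617F cells. Tyms, which makes thymidylate (ENSMUSG00000025747, chr5:30058202-30073617), ran at 46.2 to 75.9 (median 62.7) CPM in wild-type vehicle, 72.2 to 74.4 (median 74.1) in wild-type pegIFN, 70.1 to 96.5 (median 84.9) in Jak2V617F vehicle and 81.6 to 107 (median 89.6) in Jak2V617F pegIFN libraries. The wild-type pegIFN libraries of Tyms lay close together, inside the upper part of the vehicle range. Tyms rose by 0.26 ± 0.10 (adjusted p = 0.0378) in wild-type cells and stood at 0.13 ± 0.10 (adjusted p = 0.314) in Jak2V617F cells.

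Dut, which removes dUTP, had the largest changes of the class, 0.60 ± 0.11 (adjusted p = 4.86e-05) in wild-type and 0.46 ± 0.11 (adjusted p = 0.00129) in Jak2V617F cells. Rrm1, the large reductase subunit, rose by 0.26 ± 0.11 (adjusted p = 0.0422) in wild-type cells and stood at 0.079 ± 0.11 (adjusted p = 0.58) in Jak2V617F cells. Tk1, the thymidine kinase of the salvage pathway, stood at 0.079 ± 0.12 and -0.056 ± 0.12.

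The E2F and cyclin E genes held both the largest change of the 55 genes and one of the smallest. E2f8, an atypical E2F that represses E2F targets late in S phase (ENSMUSG00000046179, chr7:48866429-48881596), ran at 67.4 to 171 (median 95.5) CPM in wild-type vehicle, 175 to 246 (median 227) in wild-type pegIFN, 107 to 179.7 (median 160.0) in Jak2V617F vehicle and 194 to 224 (median 215) in Jak2V617F pegIFN libraries. Treatments did not overlap in either genotype, although wild-type vehicle replicate 3 came near the lowest pegIFN library. E2f8 rose by 1.08 ± 0.16 (adjusted p = 6.26e-06) in wild-type and by 0.49 ± 0.16 (adjusted p = 0.0164) in Jak2V617F cells. E2f1, an activating E2F (ENSMUSG00000027490, chr2:154559407-154569892), ran at 45.9 to 76.6 (median 66.6) CPM in wild-type vehicle, 80.7 to 95.5 (median 83.95) in wild-type pegIFN, 58.2 to 77.7 (median 71.8) in Jak2V617F vehicle and 77.8 to 94.4 (median 84.01) in Jak2V617F pegIFN libraries. E2f1 was apart in both genotypes, in Jak2V617F cells only just. E2f1 rose by 0.43 ± 0.095 (adjusted p = 0.000402) in wild-type and by 0.29 ± 0.095 (adjusted p = 0.0155) in Jak2V617F cells. E2f2, another activating E2F (ENSMUSG00000018983, chr4:136172394-136196057), ran at 26.98 to 37.9 (median 29.1) CPM in wild-type vehicle, 26.6 to 34.2 (median 31.2) in wild-type pegIFN, 29.6 to 45.99 (median 33.00) in Jak2V617F vehicle and 31.1 to 35.6 (median 34.4) in Jak2V617F pegIFN libraries. Its 4 ranges overlapped throughout. E2f2 stood at 0.0012 ± 0.10 (adjusted p = 0.993) in wild-type and -0.059 ± 0.10 (adjusted p = 0.659) in Jak2V617F cells. The wild-type estimate of E2f2 was below 0 under 5 other scalings, filters or fits, from -0.082 to -0.00046.

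Ccne1, cyclin E1, which starts S phase with its kinase partner (ENSMUSG00000002068, chr7:38097984-38107534), ran at 10.8 to 18.5 (median 14.4) CPM in wild-type vehicle, 19.1 to 32.1 (median 25.97) in wild-type pegIFN, 16.4 to 23.4 (median 18.8) in Jak2V617F vehicle and 21.2 to 38.6 (median 35.2) in Jak2V617F pegIFN libraries. The wild-type groups were just apart, and in Jak2V617F cells pegIFN replicate 3 fell within the vehicle range. Ccne1 rose by 0.81 ± 0.15 (adjusted p = 5.76e-05) in wild-type and by 0.79 ± 0.15 (adjusted p = 0.000145) in Jak2V617F cells. Ccne2, cyclin E2 (ENSMUSG00000028212, chr4:11191351-11204779), ran at 15.8 to 35.51 (median 24.4) CPM in wild-type vehicle, 22.4 to 41.8 (median 27.04) in wild-type pegIFN, 25.05 to 43.2 (median 31.2) in Jak2V617F vehicle and 29.97 to 46.3 (median 41.1) in Jak2V617F pegIFN libraries. All 4 ranges of Ccne2 overlapped. Ccne2 stood at 0.11 ± 0.18 (adjusted p = 0.616) in wild-type and 0.27 ± 0.18 (adjusted p = 0.219) in Jak2V617F cells. Its 95% intervals were -0.24 to 0.46 in wild-type and -0.073 to 0.62 in Jak2V617F cells.

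Of the chromatin genes, 2 of 3 rose in wild-type and 3 of 3 in Jak2V617F cells (medians 0.63 and 0.32). Uhrf1, which guides DNA methylation to newly copied strands (ENSMUSG00000001228, chr17:56303321-56323486), ran at 144 to 250.4 (median 221) CPM in wild-type vehicle, 277 to 356 (median 324) in wild-type pegIFN, 202 to 275 (median 243) in Jak2V617F vehicle and 292 to 376 (median 307) in Jak2V617F pegIFN libraries. No vehicle library reached the pegIFN range of its genotype. Uhrf1 rose by 0.63 ± 0.11 (adjusted p = 2.39e-05) in wild-type and by 0.40 ± 0.11 (adjusted p = 0.00436) in Jak2V617F cells. Chaf1a, the large subunit of the histone chaperone CAF-1 (ENSMUSG00000002835, chr17:56040416-56068026), ran at 63.5 to 114 (median 102) CPM in wild-type vehicle, 131 to 171 (median 153) in wild-type pegIFN, 91.5 to 122 (median 120.1) in Jak2V617F vehicle and 133 to 165 (median 137) in Jak2V617F pegIFN libraries. Chaf1a was also apart in both genotypes. Chaf1a rose by 0.66 ± 0.11 (adjusted p = 1.54e-05) in wild-type and by 0.32 ± 0.11 (adjusted p = 0.0175) in Jak2V617F cells. Chaf1b, its partner, stood at 0.13 ± 0.055 (adjusted p = 0.0538) in wild-type and rose by 0.17 ± 0.055 (adjusted p = 0.0138) in Jak2V617F cells.

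**Figure D3:**
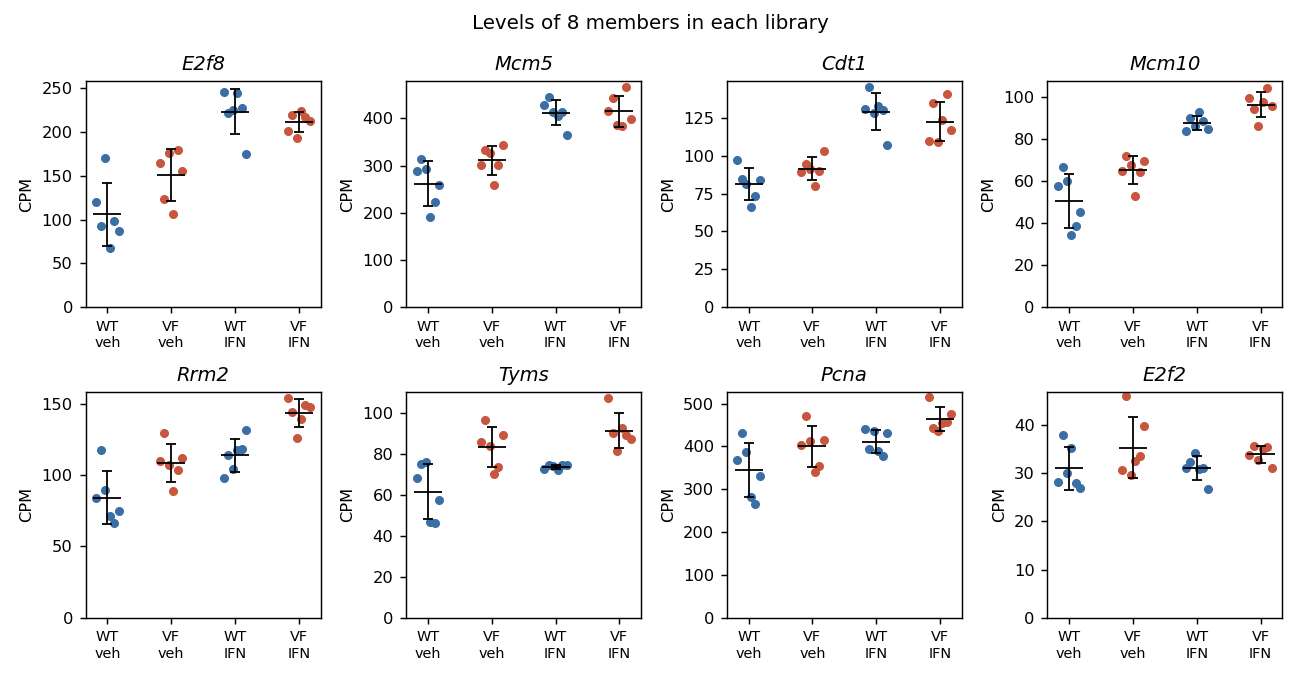
CPM of 8 of the genes in each library (vertical axes), for wild-type (WT, blue) and Jak2V617F (VF, red) cells given vehicle (veh) or pegIFN (IFN). Points are libraries and bars are mean ± SD (n = 6). E2f8, Mcm5, Cdt1 and Mcm10 separate by treatment in both genotypes, and E2f2 overlaps in all 4 groups.

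Counts of called genes after pegIFN moved when single libraries were left out. They ran from 37 (without wild-type vehicle replicate 4) to 46 (without wild-type vehicle replicate 2) in wild-type and from 30 (without Jak2V617F vehicle replicate 4) to 38 (without wild-type vehicle replicate 4) in Jak2V617F cells. Pcna, Pola1, Rpa2, Rrm1 and Tyms, with adjusted p from 0.023 to 0.0474 in wild-type cells, did not pass without wild-type vehicle replicate 4 and also not without replicate 5. In Jak2V617F cells Cdc45, Chaf1a, Gins2, Gmnn, Prim2 and Rpa1 did not pass without Jak2V617F vehicle replicate 4.

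For most of these genes vehicle libraries differed more among themselves than pegIFN libraries. The median SD of the 55 genes on the log2 CPM scale fell from 0.27 under vehicle to 0.096 under pegIFN in wild-type cells, where that of all genes was 0.21 and 0.16. In Jak2V617F cells it was 0.17 and 0.11, against 0.18 and 0.19 for all genes. The SD was larger under vehicle for 52 of 55 genes in wild-type, against 65.7% of all genes, and for 45 of 55 in Jak2V617F cells, against 46.5% of all genes. Without the discordant pair the median SD was 0.21 and 0.096 in wild-type and 0.17 and 0.10 in Jak2V617F cells, and it was larger under vehicle for 52 and 45 genes, against 60.5% and 51.2% of all genes. The low end was shared across genes and genotypes. Wild-type vehicle replicate 4 was the lowest of its group for 37 genes and Jak2V617F vehicle replicate 4, from the same mouse, for 43, while wild-type vehicle replicate 2 was the highest of its group for 32. Wild-type vehicle replicate 4 is also one of the discordant pair on sex-linked genes, and the part of that in its low values was not tested.

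The second comparison asks how mutant and normal stem cells of the same mouse differ. Under vehicle, replication genes were mostly higher in Jak2V617F cells. Without a block, 15 of 55 were called higher and 0 lower, with a median of 0.25, where 8.48% of all genes were called higher and 4.23% lower with a median of -0.0052. With the mouse as a block, 48 were called higher and 0 lower, with a median of 0.26, where 17.5% of all genes were called higher and 13.6% lower. In all 6 vehicle mice the Jak2V617F library was the higher one for 38 of the 55 genes, which held for 15.4% of all genes. The mean difference over the 55 genes was 0.19, 0.17, 0.084, 0.32, 0.42 and 0.38 in mice 41, 42, 43, 44, 61 and 63, with 45 to 54 genes higher in each. Since this comparison and that of pegIFN in wild-type cells both rest on the wild-type vehicle libraries, they are not independent. Library names of mice 41, 42 and 43 carry the same endings as those of mice 44, 61 and 63. The mean differences ran from 0.084 to 0.19 in the former and from 0.32 to 0.42 in the latter. What the endings mark is not given in the sources used here, and their part in these differences was not tested.

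Leaving out the discordant pair, 5 genes were called without a block (Gins1, Rpa3, Fen1, Tyms and Dut), and 41 with the block when both of their mice were left out. Cdc6, Cdt1, Mcm2, Mcm6, Mcm7, Pold1, Lig1 and E2f1 did not pass the blocked test without those mice, and E2f2 did. Leaving out 1 library moved the unblocked count of 15 by more than 1.5 times in 9 cases. It fell to 4 without wild-type vehicle replicate 4 or 5 or Jak2V617F vehicle replicate 1, to 7 without Jak2V617F vehicle replicate 2 or 6, and to 8 without wild-type vehicle replicate 6. It rose to 30 without wild-type vehicle replicate 2, to 26 without wild-type vehicle replicate 3 and to 25 without Jak2V617F vehicle replicate 4. The blocked count ran from 39 (without mouse 61) to 48. With upper-quartile scaling 15 of the 55 and, of all genes, 1120 higher and 927 lower were called, against 1346 and 672 with the main scaling.

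**Figure D4:**
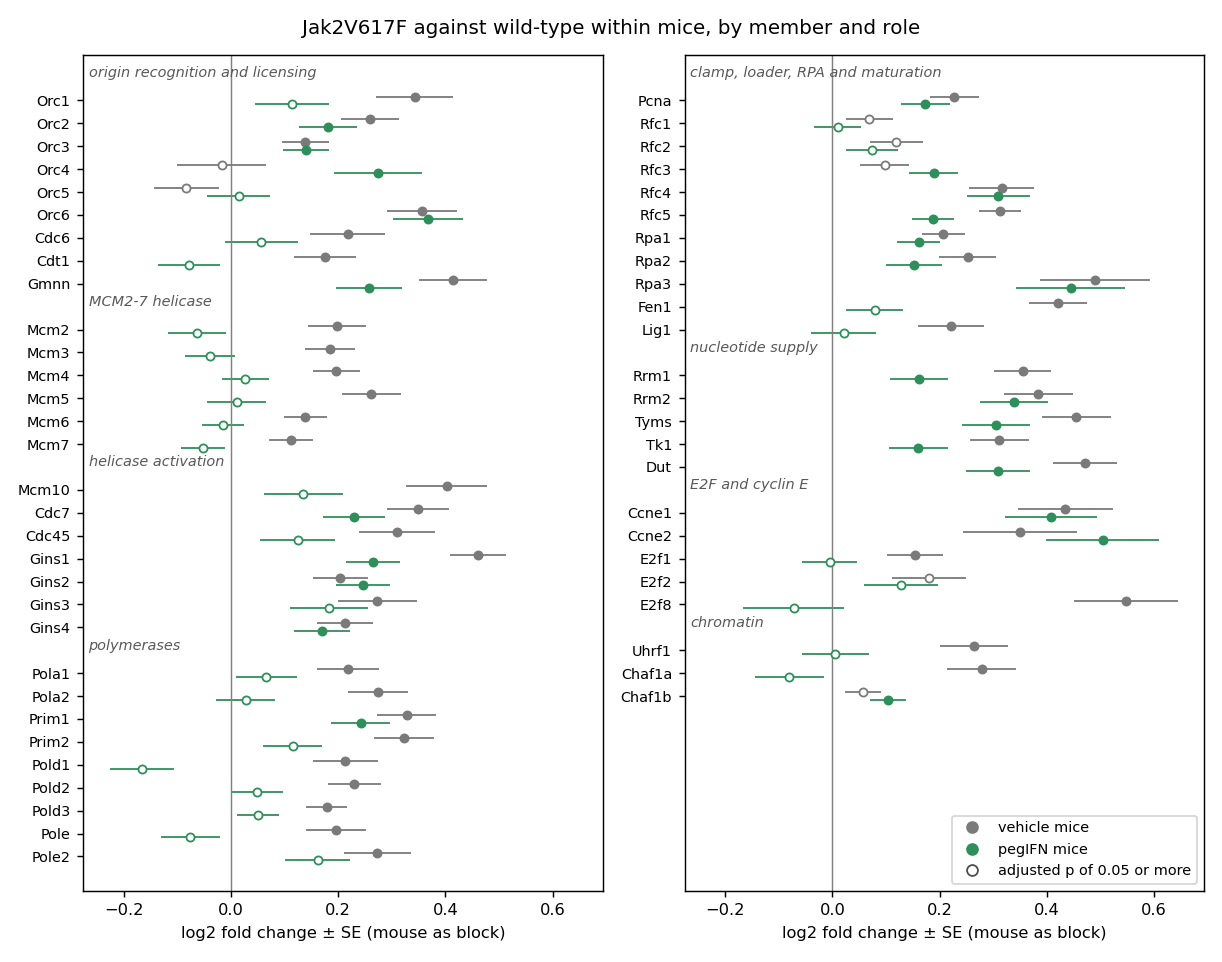
Log2 fold change of Jak2V617F against wild-type cells of the same mice (horizontal axis) for each gene, by role (vertical axis), in vehicle (grey) and pegIFN (green) mice. Points are edgeR estimates with the mouse as a block, bars are ± SE (6 mice a treatment), and open points have an adjusted p of 0.05 or more. The MCM2-7 subunits lie at 0.11 to 0.26 under vehicle and at -0.063 to 0.027 under pegIFN.

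Of the nucleotide supply genes, 5 of 5 were called higher under vehicle with the block (median 0.38) and 4 of 5 without it. Dut stood at 0.45 ± 0.11 (adjusted p = 0.00887) without and 0.47 ± 0.060 (adjusted p = 3.70e-05) with the mouse as a block. Tyms stood at 0.44 ± 0.10 (adjusted p = 0.00992) without and 0.45 ± 0.064 (adjusted p = 7.48e-05) with the mouse as a block, Rrm2 at 0.37 ± 0.11 (adjusted p = 0.0266) without and 0.38 ± 0.065 (adjusted p = 0.000337) with the mouse as a block, and both were higher in Jak2V617F cells in 6 of 6 mice. Rrm1 had the smallest change called without a block in this class, 0.34 ± 0.11 (adjusted p = 0.0375). Tk1 stood at 0.30 ± 0.12 (adjusted p = 0.108) without and 0.31 ± 0.055 (adjusted p = 0.000459) with the mouse as a block.

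In helicase activation all 7 genes were called higher with the block (median 0.31) and 2 without it. Gins1, the class's largest difference, stood at 0.45 ± 0.10 (adjusted p = 0.00707) without and 0.46 ± 0.052 (adjusted p = 1.75e-05) with the mouse as a block. Mcm10 stood at 0.37 ± 0.11 (adjusted p = 0.0334) without and 0.40 ± 0.076 (adjusted p = 0.00089) with the mouse as a block and was higher in 6 of 6 mice. Cdc45 stood at 0.30 ± 0.12 (adjusted p = 0.108) without and 0.31 ± 0.071 (adjusted p = 0.00343) with the mouse as a block, and Gins2 at 0.19 ± 0.10 (adjusted p = 0.201) without and 0.20 ± 0.051 (adjusted p = 0.00599) with the mouse as a block. Cdc7, which was not called after pegIFN, stood at 0.34 ± 0.12 (adjusted p = 0.0684) without and 0.35 ± 0.058 (adjusted p = 0.000269) with the mouse as a block here.

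The MCM2-7 subunits gave smaller differences, 6 of 6 called with the block (median 0.19) and 0 without it, where 2 of the 6 had an unadjusted p under 0.05. With the block but without the mice of the discordant pair, 3 of 6 were called (median 0.16). Mcm5 stood at 0.25 ± 0.093 (adjusted p = 0.0752) without and 0.26 ± 0.055 (adjusted p = 0.00183) with the mouse as a block, Mcm2 at 0.19 ± 0.10 (adjusted p = 0.196) without and 0.20 ± 0.054 (adjusted p = 0.00986) with the mouse as a block, and Mcm6 at 0.13 ± 0.072 (adjusted p = 0.221) without and 0.14 ± 0.040 (adjusted p = 0.0141) with the mouse as a block. Mcm7 had the smallest blocked difference, 0.11 ± 0.041 (adjusted p = 0.0469).

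Of origin recognition and licensing genes, 7 of 9 were called with the block and 3 without it. With the block but without the mice of the discordant pair, 5 of 9 were called. Gmnn led the class at 0.41 ± 0.12 (adjusted p = 0.0256) without and 0.41 ± 0.063 (adjusted p = 0.000133) with the mouse as a block. Orc1 stood at 0.33 ± 0.10 (adjusted p = 0.031) without and 0.34 ± 0.072 (adjusted p = 0.00167) with the mouse as a block, the smallest called without a block, and Orc6 at 0.35 ± 0.10 (adjusted p = 0.0206) without and 0.36 ± 0.066 (adjusted p = 0.000657) with the mouse as a block. Cdc6 and Cdt1 stood lower, Cdc6 at 0.19 ± 0.12 (adjusted p = 0.286) without and 0.22 ± 0.070 (adjusted p = 0.0247) with the mouse as a block and Cdt1 at 0.17 ± 0.084 (adjusted p = 0.179) without and 0.18 ± 0.058 (adjusted p = 0.0294) with the mouse as a block. Orc5 was the one gene whose Jak2V617F library was the higher one in a single vehicle mouse, at -0.083 ± 0.060 (adjusted p = 0.32) with the block, and Orc4 stood at -0.017 ± 0.083 (adjusted p = 0.902).

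All 9 polymerase and primase subunits were called with the block (median 0.23) and 2 without it, Prim1 at 0.32 ± 0.093 (adjusted p = 0.0271) and Prim2 at 0.31 ± 0.094 (adjusted p = 0.0329). Pold1 stood at 0.21 ± 0.093 (adjusted p = 0.137) without and 0.21 ± 0.060 (adjusted p = 0.0123) with the mouse as a block, Pola1 at 0.21 ± 0.11 (adjusted p = 0.208) without and 0.22 ± 0.058 (adjusted p = 0.00851) with the mouse as a block, and Pole at 0.19 ± 0.10 (adjusted p = 0.224) without and 0.20 ± 0.056 (adjusted p = 0.0126) with the mouse as a block. Pola1 is the one member on the X chromosome.

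Of the clamp, loader, RPA and maturation genes, 8 of 11 were called with the block (median 0.23) and 3 without it. Rpa3 stood at 0.47 ± 0.14 (adjusted p = 0.029) without and 0.49 ± 0.10 (adjusted p = 0.00218) with the mouse as a block, the largest of the class, and Rfc5, the smallest called without a block, at 0.31 ± 0.087 (adjusted p = 0.0215) without and 0.31 ± 0.039 (adjusted p = 3.34e-05) with the mouse as a block. Fen1 stood at 0.40 ± 0.11 (adjusted p = 0.0189) without and 0.42 ± 0.054 (adjusted p = 3.70e-05) with the mouse as a block. Pcna stood at 0.22 ± 0.094 (adjusted p = 0.126) without and 0.23 ± 0.046 (adjusted p = 0.0013) with the mouse as a block, Rpa1 at 0.20 ± 0.080 (adjusted p = 0.0955) without and 0.21 ± 0.040 (adjusted p = 0.000978) with the mouse as a block, and Lig1 at 0.20 ± 0.11 (adjusted p = 0.229) without and 0.22 ± 0.061 (adjusted p = 0.0111) with the mouse as a block.

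Among the E2F and cyclin E genes 4 of 5 were called with the block (median 0.35) and 1 without it. E2f8 had the largest genotype difference of the 55 genes, 0.51 ± 0.16 (adjusted p = 0.0373) without and 0.55 ± 0.10 (adjusted p = 0.000932) with the mouse as a block. Ccne1 stood at 0.43 ± 0.15 (adjusted p = 0.0571) without and 0.43 ± 0.089 (adjusted p = 0.0015) with the mouse as a block, Ccne2 at 0.33 ± 0.18 (adjusted p = 0.219) without and 0.35 ± 0.11 (adjusted p = 0.0211) with the mouse as a block, E2f1 at 0.14 ± 0.095 (adjusted p = 0.33) without and 0.15 ± 0.052 (adjusted p = 0.0313) with the mouse as a block, and E2f2 at 0.19 ± 0.10 (adjusted p = 0.202) without and 0.18 ± 0.069 (adjusted p = 0.0561) with the mouse as a block. Of the chromatin genes 2 of 3 were called with the block and 0 without it, where 2 had an unadjusted p under 0.05. Uhrf1 stood at 0.25 ± 0.11 (adjusted p = 0.126) without and 0.26 ± 0.064 (adjusted p = 0.00479) with the mouse as a block and Chaf1a at 0.26 ± 0.11 (adjusted p = 0.109) without and 0.28 ± 0.065 (adjusted p = 0.00381) with the mouse as a block.

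Under pegIFN, without a block, 3 of 55 genes were called higher (Orc6, Rpa3 and Rrm2) and 0 lower, with a median of 0.13, where 4.16% of all genes were called higher and 4.43% lower with a median of 0.015. With the block 25 were called higher and 0 lower, with a median of 0.13, where 13.3% of all genes were called higher and 11.3% lower. In all 6 pegIFN mice the Jak2V617F library was the higher one for 28 of the 55 genes, which held for 12.8% of all genes. The mean difference over the 55 genes was 0.17, 0.14, 0.051, 0.13, 0.16 and 0.12 in mice 10, 30, 40, 50, 52 and 53, with 34 to 51 genes higher in each.

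Leaving out the discordant pair, edgeR called 0 without a block, and 17 with the block when their mice were left out, where Orc2, Orc3, Orc4, Pcna, Rpa2, Rrm1, Tk1 and Chaf1b did not pass. With all libraries, DESeq2 called 6, and 17 had an unadjusted p under 0.05 in edgeR. The unblocked count of 3 moved by more than 1.5 times when single libraries were left out. With the groups compared alone the order of the treatments turned, to 3 called under vehicle and 13 under pegIFN, and without wild-type vehicle replicate 4 the counts were 4 and 5. The count under pegIFN was 0 without wild-type pegIFN replicate 1, 2 or 3 or Jak2V617F pegIFN replicate 1, 4 or 6. It was 1 without wild-type vehicle replicate 6, wild-type pegIFN replicate 4 or 5, or Jak2V617F vehicle replicate 3, 5 or 6. It was 5 without wild-type vehicle replicate 4, 6 without wild-type pegIFN replicate 6 and 8 without Jak2V617F pegIFN replicate 3. The blocked count ran from 17 (without mouse 10) to 25.

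With the block 5 of 5 nucleotide supply genes were called (median 0.30), 7 of 11 genes of the clamp, loader, RPA and maturation class (median 0.16), 5 of 9 origin and licensing genes (median 0.14) and 4 of 7 of helicase activation (median 0.18). The Jak2V617F library was the higher one in every pegIFN mouse for 7 of 7 genes of helicase activation and 4 of 5 of nucleotide supply. Without the mice of the discordant pair, 3 of 5 nucleotide supply genes were called. Orc2, Orc3 and Orc4 of the origin and licensing genes, and Pcna and Rpa2 of the clamp class, did not pass there either. No call in helicase activation was lost. Rrm2 stood at 0.34 ± 0.11 (adjusted p = 0.0498) without and 0.34 ± 0.064 (adjusted p = 0.00127) with the block, Orc6 at 0.36 ± 0.10 (adjusted p = 0.0233) without and 0.37 ± 0.065 (adjusted p = 0.000752) with the block, and Rpa3 at 0.45 ± 0.14 (adjusted p = 0.0432) without and 0.44 ± 0.10 (adjusted p = 0.00502) with the block. Each was higher in Jak2V617F cells in 6 of 6 pegIFN mice. Tyms, the member with the next smallest unblocked p, stood at 0.31 ± 0.10 (adjusted p = 0.0635) without and 0.30 ± 0.064 (adjusted p = 0.00236) with the block, and Dut at 0.31 ± 0.11 (adjusted p = 0.0646) without and 0.31 ± 0.059 (adjusted p = 0.00137) with the block. Ccne2 had the largest difference, 0.49 ± 0.18 (adjusted p = 0.0828) without and 0.50 ± 0.10 (adjusted p = 0.00306) with the block, and Ccne1 stood at 0.41 ± 0.15 (adjusted p = 0.0795) without and 0.41 ± 0.086 (adjusted p = 0.00253) with the block. Gins2, Gmnn, Pcna and Rpa1 were also called with the block, at 0.25 ± 0.051 (adjusted p = 0.00213), 0.26 ± 0.062 (adjusted p = 0.0059), 0.17 ± 0.046 (adjusted p = 0.0103) and 0.16 ± 0.040 (adjusted p = 0.00733).

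The MCM2-7 subunits showed no called difference under pegIFN by edgeR with or without the block, and 0 of 6 had an unadjusted p under 0.05. Their blocked values ran from -0.063 to 0.027. Mcm2 stood at -0.063 ± 0.054 (adjusted p = 0.44), Mcm5 at 0.011 ± 0.055 (adjusted p = 0.913) and Mcm6 at -0.015 ± 0.040 (adjusted p = 0.837), and Mcm5 lay just below 0 under 4 other scalings, filters or fits, as far as -0.0019. The unblocked 95% interval of Mcm5 was -0.17 to 0.19. In at most 2 of 6 pegIFN mice was the Jak2V617F library the higher one for 12 genes: Cdt1, Mcm2, Mcm3, Mcm5, Mcm6, Mcm7, Pold1, Pole, E2f1, E2f8, Uhrf1 and Chaf1a. With the block Pold1 stood at -0.17 ± 0.060 (adjusted p = 0.0521), Pole at -0.075 ± 0.055 (adjusted p = 0.356) and Pola1 at 0.066 ± 0.057 (adjusted p = 0.446). With the block and RLE or upper-quartile scaling Pold1 was called lower, at -0.18 ± 0.062 (adjusted p = 0.0464) and -0.17 ± 0.060 (adjusted p = 0.0428). E2f8 stood at -0.073 ± 0.095 (adjusted p = 0.634), E2f1 at -0.0047 ± 0.051 (adjusted p = 0.961) and E2f2 at 0.13 ± 0.069 (adjusted p = 0.193). Uhrf1 stood at 0.0055 ± 0.063 (adjusted p = 0.963) and Chaf1a at -0.081 ± 0.064 (adjusted p = 0.397), and Uhrf1 was below 0 under 8 other scalings, filters or fits, as far as -0.0070. Of the licensing and elongation genes not yet given, Orc1 stood at 0.11 ± 0.069, Cdc6 at 0.057 ± 0.068, Cdt1 at -0.077 ± 0.058, Mcm10 at 0.13 ± 0.074, Cdc45 at 0.12 ± 0.070 and Lig1 at 0.021 ± 0.061, with blocked adjusted p from 0.205 to 0.85.

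The third comparison, the interaction, asks whether the response to pegIFN differed between the genotypes. Without a block 0 of 55 genes and 0 of all genes (0%) were called by edgeR, with 5 of 55 and 1338 of 15879 at an unadjusted p under 0.05. DESeq2 called 0 of the 55 and, of all genes, 10 higher and 28 lower. With the mouse as a block 4 of the 55 were called, all with a smaller response in Jak2V617F cells, where 3.33% of all genes were called in either direction. These were E2f8 at -0.62 ± 0.13 (adjusted p = 0.0273), Pold1 at -0.38 ± 0.085 (adjusted p = 0.0223), Chaf1a at -0.36 ± 0.091 (adjusted p = 0.0407) and Fen1 at -0.34 ± 0.076 (adjusted p = 0.0212). Without a block they stood at -0.59 ± 0.22 (adjusted p = 0.513), -0.37 ± 0.13 (adjusted p = 0.478), -0.34 ± 0.15 (adjusted p = 0.565) and -0.32 ± 0.15 (adjusted p = 0.589). The limma-voom fit with the mouse as a random block called Pold1 and E2f8.

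In each of these genes wild-type vehicle had the lowest group median. E2f8, for example, had medians of 95.5 and 160.0 CPM in wild-type and Jak2V617F vehicle and 227 and 215 CPM after pegIFN. Over the 55 genes the pegIFN estimate was larger in wild-type cells for 47, and the median interaction was -0.13 without and -0.15 with the block. The blocked calls changed in number when single mice were left out. Their number was 0 without mouse 44 or mouse 61, 1 without mouse 10, 40, 50 or 63, 6 (and 1 gene higher) without mouse 53 and 7 without mouse 41, and 0 without both mice of the discordant pair. The 9 genes that passed after pegIFN in wild-type and not in Jak2V617F cells (Pola1, Prim1, Pold3, Pole, Pcna, Rpa2, Lig1, Rrm1 and Tyms) were not called in the interaction with or without the block.

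Other genes of the same pathways were counted from lists not chosen by direction of change, though earlier results of these data were known. Of all genes, 28.2% were called higher and 28.7% lower after pegIFN in wild-type cells, and 21.7% and 22.3% in Jak2V617F cells. Between genotypes under vehicle, 8.48% were called higher and 4.23% lower in Jak2V617F cells (17.5% and 13.6% with the block). Under pegIFN these shares were 4.16% and 4.43% (13.3% and 11.3% with the block). Of 37 further fork and initiation genes, 30 rose and 1 fell after pegIFN in wild-type cells (median 0.33), led by the helicase Recql4 at 0.70 ± 0.10 (adjusted p = 4.44e-06), with Pold4 at -0.23 ± 0.10 (adjusted p = 0.0453). In Jak2V617F cells 13 rose and 0 fell (median 0.19), led by the histone chaperone Nasp at 0.41 ± 0.11 (adjusted p = 0.00308). Under vehicle 13 were higher and 0 lower in Jak2V617F cells without a block (30 and 1 with it), led by the helicase Pif1 at 0.79 ± 0.16 (adjusted p = 0.00422). Under pegIFN the counts were 0 and 0 without a block, with 9 at an unadjusted p under 0.05, and 12 and 0 with it. Without the discordant pair 26 rose and 0 fell in wild-type cells, Pold4 not passing (adjusted p = 0.127), and 12 rose and 0 fell in Jak2V617F cells. Between genotypes 7 were then higher under vehicle (27 with the block) and 0 under pegIFN (3 with the block), with 0 lower.

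Of 19 further nucleotide genes, 12 rose and 3 fell after pegIFN in wild-type and 10 rose and 2 fell in Jak2V617F cells. Mthfd1, a folate enzyme, led both with 0.92 ± 0.085 (adjusted p = 4.50e-09) and 0.68 ± 0.085 (adjusted p = 1.24e-06). Rrm2b, the reductase subunit used outside S phase, fell most, at -0.65 ± 0.13 (adjusted p = 0.000152) and -0.36 ± 0.13 (adjusted p = 0.0259). Between genotypes 6 were higher and 0 lower under vehicle (12 and 3 with the block) and 1 and 0 under pegIFN (4 and 1 with it), with Nme1, a nucleoside diphosphate kinase, at 0.51 ± 0.10 (adjusted p = 0.00255) and 0.32 ± 0.094 (adjusted p = 0.0378). With the discordant pair left out, the counts after pegIFN were 12 and 2 and 11 and 2, and those between genotypes 3 and 0 under vehicle (11 and 2 with the block) and 0 and 0 under pegIFN (1 and 1 with the block), where Nme1 did not pass (adjusted p = 0.0568).

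Of 21 further E2F, RB and CDK2 genes, 12 rose and 2 fell after pegIFN in wild-type and 4 rose and 2 fell in Jak2V617F cells. The 4 rises in Jak2V617F cells lay near the 21.7% of all genes called higher. Mybl2, an S-phase transcription factor, rose by 0.64 ± 0.10 (adjusted p = 8.00e-06) in wild-type and E2f4, a repressive E2F, by 0.52 ± 0.065 (adjusted p = 1.62e-06) in Jak2V617F cells. Tfdp2, an E2F partner, had the largest fall in both, -0.57 ± 0.086 (adjusted p = 4.63e-06) and -0.57 ± 0.086 (adjusted p = 1.51e-05). Under vehicle 8 were higher and 1 lower in Jak2V617F cells (13 and 2 with the block), led by Ccna2 (cyclin A2) at 0.63 ± 0.12 (adjusted p = 0.00254), with Rbl2, an RB relative linked to quiescence, at -0.25 ± 0.048 (adjusted p = 0.0029). Under pegIFN 0 and 0 were called, with 6 at an unadjusted p under 0.05, and 4 and 1 with the block. When that pair was left out, 9 rose and 2 fell in wild-type and 4 rose and 2 fell in Jak2V617F cells, and 7 were higher and 1 lower under vehicle (12 and 2 with the block).

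Of 10 G1 regulators tested, 3 rose and 3 fell in wild-type and 4 rose and 3 fell in Jak2V617F cells after pegIFN, with and without the discordant pair. In wild-type cells these shares lay near those of all genes, of which 28.2% were called higher and 28.7% lower, and in Jak2V617F cells all genes gave 21.7% and 22.3%. Cdkn1c (p57), an inhibitor that marks quiescent stem cells, had the largest fall, -1.79 ± 0.22 (adjusted p = 4.73e-07) and -1.22 ± 0.22 (adjusted p = 0.000127). Ccnd3 (cyclin D3) had the largest rise in wild-type cells, 0.45 ± 0.093 (adjusted p = 0.000236), and Cdkn1a (p21) in Jak2V617F cells, 1.42 ± 0.32 (adjusted p = 0.00116). Between genotypes Cdk4 stood at 0.25 ± 0.065 (adjusted p = 0.0157) and Cdkn1c at -0.65 ± 0.22 (adjusted p = 0.0481) under vehicle, and Cdkn1a at 1.22 ± 0.32 (adjusted p = 0.022) and Cdk6 at -0.34 ± 0.10 (adjusted p = 0.0417) under pegIFN. With the block 3 were higher and 2 lower under vehicle and 3 and 3 under pegIFN. When the discordant pair was left out, Cdkn1c (adjusted p = 0.127) and Cdk6 (adjusted p = 0.116) did not pass without a block, and the blocked counts were 2 and 1 and 1 and 2.

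Of 28 genes of G2/M, 20 rose and 0 fell after pegIFN in wild-type cells (median 0.47), led by Plk1 at 0.86 ± 0.16 (adjusted p = 7.59e-05). In Jak2V617F cells 0 rose and 2 fell (median 0.0097), Kif23 at -0.60 ± 0.12 (adjusted p = 0.000269) and Nusap1 at -0.42 ± 0.15 (adjusted p = 0.0239). Under vehicle all 28 were higher in Jak2V617F cells with and without the block (medians 0.60 and 0.58), led by Ube2c at 0.95 ± 0.12 (adjusted p = 0.000117). Under pegIFN 1 was higher without the block, Cdk1 at 0.38 ± 0.12 (adjusted p = 0.0428), and 7 with it. The interaction called 0 without the block, with 22 at an unadjusted p under 0.05, and 22 lower with it. Without the discordant pair 17 rose and 1 (Kif23) fell in wild-type and 0 rose and 3 fell in Jak2V617F cells, 22 were higher in Jak2V617F cells under vehicle (28 with the block) and 1 under pegIFN (5 with the block), and the blocked interaction called 5 lower. Their summed level ran from 1968 to 3812 CPM in wild-type vehicle libraries, 3542 to 3862 in wild-type pegIFN, 3074 to 4695 in Jak2V617F vehicle and 3679 to 4283 in Jak2V617F pegIFN libraries.

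Markers of cell identity moved with the treatment as well, and their counts stand beside the same shares of all genes as the lists above. Of 12 LT-HSC markers, 1 rose (Ly6a, the gene of Sca1) and 10 fell in each genotype, and their sum was 2073 to 2760 CPM in wild-type vehicle, 1263 to 1685 in wild-type pegIFN, 1637 to 2036 in Jak2V617F vehicle and 1159 to 1817 in Jak2V617F pegIFN libraries. Of 5 markers of committed progenitors 1 (Cd48) rose and 3 fell in each genotype. Of 8 erythroid markers tested 4 early ones (Gata1, Klf1, Epor and Car1) rose and 3 late ones fell in each genotype, with sums of 164 to 442 and 496 to 893 CPM under vehicle and pegIFN in wild-type cells, and of 166 to 327 and 222 to 523 CPM in Jak2V617F cells. Of 6 megakaryocyte markers 2 rose in wild-type and 0 in Jak2V617F cells, where 0 had an unadjusted p under 0.05. Of 9 granulocyte and monocyte markers 1 rose and 2 fell in wild-type and 1 rose and 0 fell in Jak2V617F cells, and 4 were higher in Jak2V617F than wild-type cells under pegIFN (8 with the block). Of markers of B cells 3 of 3 tested fell in wild-type and 1 of 3 in Jak2V617F cells. Nkg7 alone of 2 tested T and NK cell markers rose in both. Of 4 stromal and endothelial markers 3 fell in wild-type and 2 in Jak2V617F cells. Between genotypes under vehicle 0 LT-HSC markers were higher and 3 lower (6 lower with the block). Without a block Cd48 (0.67), Pf4 (1.09), Gp1bb (0.79) and Nkg7 (0.48) were called higher in Jak2V617F cells under vehicle. Markers called higher there with the block included Fcgr3, Ctsg, Ly6c2, S100a8 and S100a9. Under pegIFN, Gata1 (-0.22) and Epor (-0.24) were called lower in Jak2V617F cells with the block. None of these calls was made in the same fit without the discordant pair or its mice. Granulocyte and monocyte markers summed to 384 to 1038 and 207 to 640 CPM in wild-type and 393 to 2146 and 916 to 1484 CPM in Jak2V617F cells. Libraries with 0 counts numbered 15 for Cd3e, 14 for Cd8a, 11 for Cd3d, 10 for Ms4a1 and Cdh5, 4 for Pax5, 2 for Slc4a1 and 1 for Cd4 and Cxcl12, and other markers were detected in all 24. Once the discordant pair was left out, 9 LT-HSC markers fell in Jak2V617F cells, 2 B cell markers fell in wild-type and 0 in Jak2V617F cells (1 at an unadjusted p under 0.05), 2 stromal and endothelial markers fell in wild-type cells, 1 granulocyte and monocyte marker (Lyz2) fell in Jak2V617F cells and 2 were higher in them under pegIFN (7 with the block). The other counts of markers given here did not change without it. The part of these cell types in the replication results was not tested.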

How the data were processed

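RNA of sorted LT-HSCs was extracted with PicoPure, primed with oligo d(T), made into NEBNext Ultra II libraries and sequenced as 75 bp single reads on an Illumina NextSeq, per the labels' protocols. The deposited values are expected counts per gene, which the authors made with RSEM 1.2.30 (the submitters' processing notes also name cutadapt 1.11, STAR 2.5.2a and the build GRCm38). Strandedness and annotation release are not given in the sources used here. RSEM splits reads between overlapping or similar genes, and 16.8% of values were not whole. Counts were rounded to whole numbers.

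Genes were tested with edgeR 4.0.16 (R 4.3.3; robust quasi-likelihood test, TMM scaling, a minimum count of 10, 4 group means), with Benjamini-Hochberg adjustment over 15879 genes at 0.05. The filter left out 22336 genes and kept 99.95% of counts, and the biological coefficient of variation was 18.6%. SEs are the fold change divided by the square root of F. CPM use TMM library sizes, and mean log2 CPM a prior count of 2. The mouse pairs a wild-type with a Jak2V617F library of the same animal. Deviations from group means correlated within all 12 pairs (0.12 to 0.42, median 0.28), and 11 libraries of 12 correlated best with their own partner, so the genotype comparisons and the interaction are also given from a model that holds the mouse. Alternatives used DESeq2 1.42.0 and limma 3.58.1, other scalings and filters, and each library left out. The scripts were tested on simulated counts drawn without a mouse effect. That test does not bear on how the blocked fit handles pairs.

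Genes named in every comparison were 25 members fixed by name, with, in each role, the called members of largest and smallest change, in comparisons with few calls the 4 of smallest p, and in other lists the largest called rise and fall. Other members are named beside them after their values were seen. The 55 members and the lists were chosen with earlier results of these data known. Figures were drawn with matplotlib 3.10.9.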

Additional observations from a re-analysis of the deposited data

Results flagged for a closer look

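In 224 groups of 6 libraries (55 genes and the mean over them, in 4 groups), the highest or lowest library was tested for distance from the other 5 with Dixon's ratio at 95%, which chance exceeds in about 1 group of 20. It was exceeded 14 times. Among Jak2V617F pegIFN libraries, replicate 3 was low for Orc1 (18.7 CPM, others from 22.9), Gins4 (38.8 CPM, others from 42.7) and Ccne1 (21.2 CPM, others from 33.5), and high for Rfc1 (170.0 CPM, others up to 145). Its mean over the 55 genes was 6.64 log2 CPM, with the others from 6.75. Among Jak2V617F vehicle libraries, replicate 4 was low for Cdc45 (30.97 CPM, others from 47.0), Pola2 (72.3 CPM, others from 89.8) and Chaf1a (91.5 CPM, others from 117), and replicate 2 was high for Cdc6 (68.3 CPM, others up to 55.1). Among wild-type pegIFN libraries, replicate 6 was low for Pole (142 CPM, others from 167) and E2f8 (175 CPM, others from 222) and high for Cdc7 (72.5 CPM, others up to 65.6). Replicate 4 was low for Rpa1 (194 CPM, others from 205), and replicate 3 had the lowest mean over the 55 genes, 6.58 log2 CPM, with the others from 6.62.

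The response to pegIFN differed between the genotypes, in edgeR's interaction with the mouse as a block, for E2f8 (-0.62), Pold1 (-0.38), Chaf1a (-0.36) and Fen1 (-0.34), each with the smaller response in Jak2V617F cells. None of these 4 passed without the block, and 0 of the 4 calls were made with the block when mice 10 and 44 were left out. Mouse 10 and mouse 44 supplied the 2 libraries that were discordant on sex-linked genes.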

How the results depend on the processing

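Counts of called members after pegIFN stayed within 1.5 times their values under every setting run. Leaving out single libraries gave 37 to 46 higher in wild-type cells (median change 0.33 to 0.48) and 30 to 38 in Jak2V617F cells (0.25 to 0.32), with 0 lower. A replicate block by the number in the sample titles, which marks different mice across treatments, gave 45 and 38. The genotype counts depended on the processing. Under vehicle the 15 members called higher became 3 with the groups compared alone, 46 with limma-voom, 5 without the discordant pair, 48 with the mouse as replicate block, 41 with that block and without the pair's mice, and 46 and 44 with that block and RLE or upper-quartile scaling. Single libraries left out gave 4 to 30 (median 0.16 to 0.30), and single mice with the block 39 to 48. Under pegIFN the 3 called higher became 6 with DESeq2, 1 with no low-count filter, 13 with the groups compared alone, 21 with limma-voom, 0 without the discordant pair, 25 with the replicate block, 17 with the block and without the pair's mice, and 21 and 25 (each with 1 lower) with the block and RLE or upper-quartile scaling. Single libraries left out gave 0 to 8 (median 0.10 to 0.13), and single mice with the block 17 to 25 higher and 0 to 1 lower. In the interaction the 0 called lower became 2 with limma-voom, 4 with the replicate block and 3 with the block and RLE or upper-quartile scaling. Single libraries left out gave 0 (median -0.20 to -0.057), and single mice with the block 0 to 7 lower and 0 to 1 higher. The causes were not tested. The blocked fits with other scalings or without single mice, and the other lists, spreads and promoter split without the discordant pair, were chosen after seeing the data.

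Of 127 named gene values, 8 changed sign under some setting. After pegIFN in wild-type cells E2f2 was -0.0030 (RLE), -0.082 (upper quartile), -0.0031 (DESeq2), -0.029 (CPM filter) and -0.00046 (groups compared alone). In Jak2V617F cells Pole was -0.023 (upper quartile). Between genotypes under pegIFN, Mcm5 was -4.60e-05 (RLE), -4.47e-05 (DESeq2), -0.0019 (no filter) and -0.00067 (replicate block, RLE). Uhrf1 was -0.0053 with RLE and DESeq2, -0.00088 (upper quartile), -0.0070 (no filter), -0.0010 (CPM filter), -0.0022 (groups compared alone), -0.0061 (replicate block, RLE) and -0.0016 (replicate block, upper quartile). Leaving out single libraries or mice gave, after pegIFN, -0.019 to 0.087 for E2f2 and -0.023 to 0.23 for Ccne2 in wild-type cells, and -0.026 to 0.092 for Pole and -0.10 to 0.036 for E2f2 in Jak2V617F cells. Between genotypes under pegIFN it gave -0.033 to 0.028 for Mcm5, -0.052 to 0.032 for Uhrf1, -0.017 to 0.045 for Lig1 and -0.055 to 0.024 for E2f1. The deposited values are RSEM estimates, so counts of members that overlap other loci carry an uncertainty that was not measured. At these totals every member passed the filter. The parts of depth and of the spread between libraries in the SEs were not tested.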
